A study of Mus musculus with 6 samples.

Results

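The creatine system of the embryonic small intestine epithelium is described here through 6 genes, the creatine kinases *Ckb*, *Ckmt1*, *Ckm* and *Ckmt2* and the creatine synthesis enzymes *Gatm* and *Gamt*, out of 23366 genes in the count tables. The genes were chosen by symbol, with earlier results of these libraries known, so their differences between the groups are given as a description and without a test. Small intestine epithelium, sorted as EpCAM-positive cells at E13.5, was sequenced from wild type embryos and from mutants of the genotype Shh-cre-egfp:Tcf7l1 lox/lox, with 3 libraries of 500 cells in each group and no treatment in either. In the mutants, a Cre recombinase fused with EGFP and made from the *Shh* locus in the gut epithelium deletes a floxed exon of *Tcf7l1*, which encodes a repressor of WNT target genes. The other group is labelled wild type, with no Cre, so effects of the Cre allele and of *Tcf7l1* loss cannot be told apart. The submitters call the libraries biological replicates and do not say how many embryos went into each.

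Creatine carries high-energy phosphate between the places where ATP is made and the places where it is used. Creatine kinases move the phosphate between ATP and creatine. *Ckb* encodes the brain-type enzyme of the cytosol, which is also made in many epithelia, and *Ckm* encodes its muscle counterpart. *Ckmt1* encodes the ubiquitous and *Ckmt2* the sarcomeric enzyme of the mitochondrial intermembrane space, where newly made ATP is the substrate. *Gatm* encodes the mitochondrial amidinotransferase that joins arginine and glycine into guanidinoacetate, the first and rate-limiting step of creatine synthesis, and *Gamt* encodes the methyltransferase that turns guanidinoacetate into creatine.

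The bases ahead of the start sites of *Ckb*, *Ckmt1* and *Gatm*, the members with the largest differences between the groups, are given to show which promoter letters they share. They are RefSeq start sites, and each sequence has 1 exact match on its chromosome in the mm9 genome (NCBIM37). The first window is chr12:112910550-112910799 on the minus strand, the second is chr2:121183262-121183449 on the plus strand and the third is chr2:122437040-122437263 on the minus strand. Windows of 250 bases were searched on both strands for the TATA box letters TATAAA, for the CCAAT box, for the GC box letters GGGCGG, for the caudal factor core TTTATG and for the TCF/LEF core CTTTGA, and the matches, none of which overlap, are in capitals where they fall in the bases printed.
Ckb: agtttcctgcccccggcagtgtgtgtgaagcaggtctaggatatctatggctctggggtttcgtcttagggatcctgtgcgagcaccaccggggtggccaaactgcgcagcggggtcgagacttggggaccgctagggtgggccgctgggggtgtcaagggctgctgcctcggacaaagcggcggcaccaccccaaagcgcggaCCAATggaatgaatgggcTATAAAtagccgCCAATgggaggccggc
Ckmt1: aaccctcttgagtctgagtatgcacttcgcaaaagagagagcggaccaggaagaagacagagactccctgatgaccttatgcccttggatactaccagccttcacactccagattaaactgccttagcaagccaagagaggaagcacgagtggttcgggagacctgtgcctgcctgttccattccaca
Gatm: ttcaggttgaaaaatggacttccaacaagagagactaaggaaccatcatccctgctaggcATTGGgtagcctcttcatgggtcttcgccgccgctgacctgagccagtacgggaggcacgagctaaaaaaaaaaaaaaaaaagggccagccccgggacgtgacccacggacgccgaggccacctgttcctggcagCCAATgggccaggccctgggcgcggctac

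In *Ckb* the TATA box letters began 28 bases ahead of the start and lay between CCAAT matches that began 46 and 16 bases ahead of it. In the *Ckmt1* window the TATA box letters were found once, on the opposite strand, from 31 bases ahead of the start. The last 62 bases of that window lie inside the mm9 gene model and are not printed, and nor are the last 26 bases of the *Gatm* window. *Gatm* had CCAAT matches 55 bases ahead of the start and, on the opposite strand, 190 bases ahead. Over 32851 promoter windows of the same length, 12.4% held the TATA box letters and 33.8% held CCAAT. The TCF/LEF core, held by 13.8% of all windows, was matched in none of these 3 windows and once in *Ckmt2*, on the opposite strand from 216 bases ahead of the start. The GC box letters, in 32.7% of windows, were matched 3 times in *Gamt* and once in *Ckmt2*. *Ckmt2* also had CCAAT matches 145 bases ahead of the start and, on the opposite strand, 69 bases ahead. The caudal factor core, in 10.8% of windows, was matched in none of the members. A second start of *Ckmt1* held 1 CCAAT and none of the other letters, and the *Ckm* window held none of the 5.

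The total counts lay between 18216537 and 20397278. *Tcf7l1* had 363 to 475 normalized counts in the wild type libraries and 32.9 to 72.8 in the mutants. *Shh*, whose locus carries Cre, had 411 to 541 and 183 to 223. *Xist*, expressed from the inactive X chromosome, had 0 counts in the wild type and 237 to 450.5 normalized counts in the mutant libraries, while the Y-linked genes *Ddx3y*, *Eif2s3y*, *Kdm5d* and *Uty* were present in the wild type and had 0 counts in the mutant libraries, so that genotype and sex cannot be told apart. Markers of epithelium were followed through 10 genes, all of which passed the filter on low counts. Of the 10, 3 had a log2 fold change above 0 and 7 below, with a median of -0.38 against -0.04 over all tested genes. *Epcam* had 51869.5 ± 4614 normalized counts in the wild type libraries and 61531 ± 2102 in the mutants (mean ± SD, n = 3) and was not called. *Cdh1*, *Cdx2* and *Krt18* were called lower in the mutants, 30% of the list against 5.83% of all tested genes. Below the fold set for a call, *Krt8* had -0.32 (edgeR adjusted p = 0.0010), *Krt19* -0.49 (edgeR adjusted p = 2.8e-05) and *Cldn7* 0.24 (edgeR adjusted p = 0.0091). Of the blood markers, *Hba-a1*, *Hbb-bh1*, *Hbb-b1* and *Ptprc* had 0 counts in all libraries. The 6 smooth muscle markers summed to 211 to 249 normalized counts in the wild type libraries and to 196 to 1159 in the mutants, with the highest sum in mutant 3. All 6 had a log2 fold change above 0, with a median of 1.37, and none was called. *Acta2* had 1.52 (edgeR adjusted p = 0.0142) and *Tagln* 1.31 (edgeR adjusted p = 0.0261). The 8 mesenchyme markers summed to 1235 to 1495 and 903 to 985, most of it *Vim* (1249 ± 119 and 911 ± 49.3, log2 fold change -0.46, edgeR adjusted p = 0.0049). Of the other mesenchyme markers that passed the filter, *Col3a1* had a log2 fold change of -2.21 (edgeR adjusted p = 0.0263) and *Pdgfrb* of -1.45 (adjusted p = 0.17), and *Twist1* had at most 1.87 normalized counts. The 8 neural markers summed to 262 to 353 and 243 to 343, and none in either list was called. Summed blood markers were 21.8 to 29.8 and 4.13 to 9.93.

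*Ckb* was the dominant creatine kinase transcript and was nearly 2-fold higher in the mutants, *Ckmt1* was more than 2-fold higher, *Gatm* was higher by a smaller and more variable margin, and *Gamt*, *Ckmt2* and *Ckm* showed overlapping groups. Normalized counts are scaled by TMM in edgeR, which gives each library a scaling factor on the assumption that most genes do not change. The factors were 1.007 to 1.059 in the wild type libraries and 0.957 to 0.969 in the mutants. Log2 fold changes and their standard errors (SE) come from 1 fit over the 12501 genes that passed a filter on low counts. Of the 6 genes, 5 passed that filter. A call needed an adjusted p below 0.01, a change of 0.5 or more on the log2 scale in either direction and, averaged over the libraries, 50 or more normalized counts. By these criteria 3 of the 6, *Ckb*, *Ckmt1* and *Gatm*, were called higher and none lower, where 2.78% of all tested genes were called higher, 5.83% lower and 8.62% in either direction. The same 3 had groups that did not overlap, as did 43% of all tested genes. As the genes were chosen with this contrast known, nothing is read from these counts. In bulk libraries, a change in the number of cells that make a transcript and a change in its level per cell cannot be told apart.

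**Figure D1:**
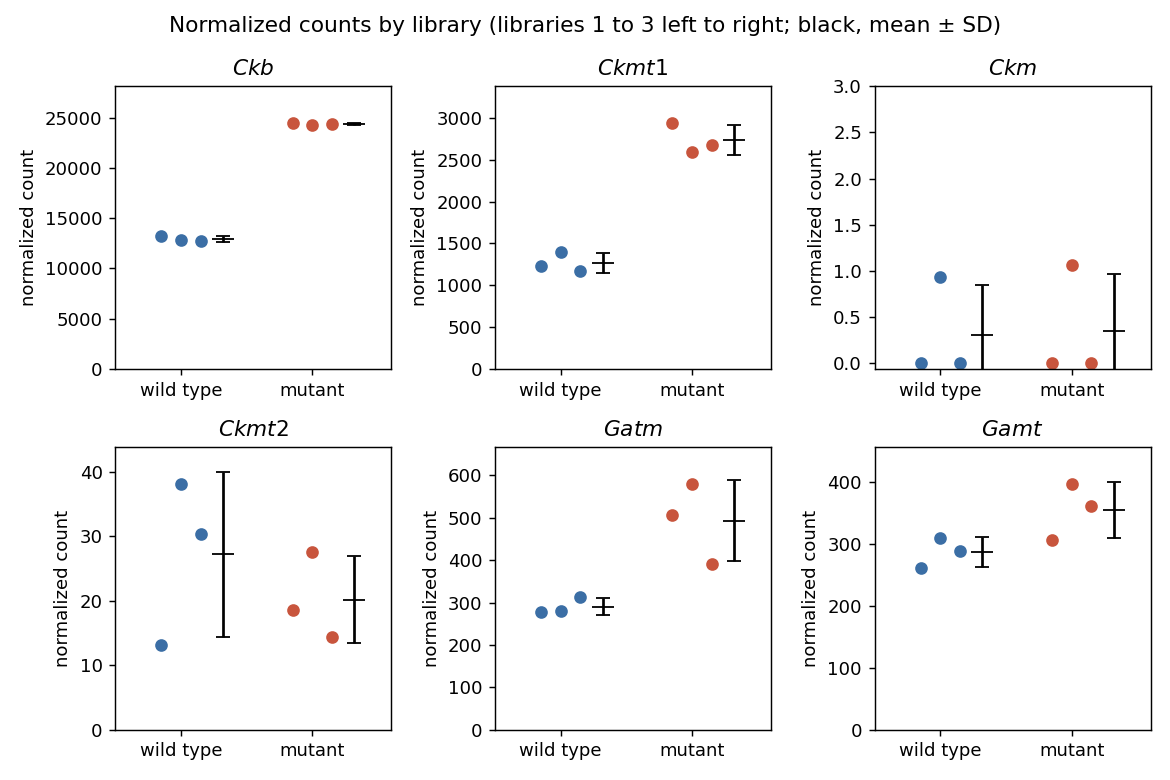
Normalized counts (y axis, linear, each panel on its own scale) of the 6 genes in wild type and mutant libraries. Coloured points are libraries 1 to 3 from left to right, and black marks are the group mean ± SD (n = 3). The groups are apart for *Ckb*, *Ckmt1* and *Gatm* and overlap for *Gamt*, *Ckmt2* and *Ckm*, the last of which has at most about 1 normalized count in any library.

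*Ckb* (ENSMUSG00000001270) spans 112907566 to 112910549 of chromosome 12 in mm9, on the minus strand. It had 13239.6, 12879 and 12707 normalized counts over wild type 1, 2 and 3, against 24479.9, 24265 and 24403 over mutant 1, 2 and 3. Every mutant library was above every wild type library, and the libraries of a group lay close together. Group means were 12942 ± 272 in the wild type libraries and 24383 ± 109 in the mutants (1.88-fold, a log2 fold change of 0.91 ± 0.06 SE). The SD of 109 over the mutant libraries, 0.446% of their mean, was below the 156 normalized counts that counting error alone would give, while the SD of 272 over the wild type libraries, 2.10% of their mean, was above the 114 that it would give. Over the 6 fits that each omit a library, the log2 fold change of *Ckb* lay between 0.91 and 0.93. By the size of the difference in normalized counts, 11441, *Ckb* ranked 8th of 23366 genes for increase, and by log2 fold change it ranked 101st of the 348 genes called higher.

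*Ckb* has copies without introns elsewhere in the genome, which may bear on its counts because the authors counted uniquely mapping reads. The nearest copy lies on chromosome 4, from 121756105 to 121757462 of mm9, aligns over 91.9% of the 1478-base transcript and is 96.8% identical. Of the 1395 windows of 84 bases in the transcript, the read length, 167 or 11.97% occur unchanged in that copy, so reads from these windows match both places. A copy on chromosome 16 (38483301 to 38484678) is 93.8% identical and shares 4 windows, and the 2 copies on chromosome 17 are 88.2% identical and share 0. The chromosome 4 copy is annotated as the pseudogene *Gm12892*, which has no row in the count tables used here. Reads were not aligned here, so whether *Ckb* reads were lost in this way, and how many, was not tested. A further match on chromosome 11 spans 151 bases, and no match of 100 or more aligned bases outside the gene itself was found for the other 5 genes.

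*Ckmt1* (ENSMUSG00000000308) spans 121183450 to 121189473 of chromosome 2, on the plus strand. It had 1232, 1392 and 1172 normalized counts over wild type 1, 2 and 3, against 2937, 2595 and 2681 over mutant 1, 2 and 3. The lowest mutant library was above the highest wild type library. Group means were 1266 ± 114 in the wild type libraries and 2738 ± 178 in the mutants (2.16-fold, a log2 fold change of 1.11 ± 0.09 SE), and over the 6 fits that omit a library the log2 fold change lay between 1.06 and 1.19. Among the genes called higher, *Ckmt1* ranked 62nd by log2 fold change, where the median was 0.70. *Strc*, on the other strand, shares 10 of the 2496 exon bases of *Ckmt1*.

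The muscle enzymes had the lowest counts of the 6 genes. *Ckm* (ENSMUSG00000030399, chromosome 7, 19996443 to 20006932, plus strand) had 1 count in wild type 2, 1 count in mutant 2 and 0 counts in the other 4 libraries. Both groups were under the 3 counts that a count of 0 allows, so no fold is given. *A930016O22Rik*, on the other strand, shares 31.9% of the *Ckm* exon bases. *Ckmt2* (ENSMUSG00000021622, chromosome 13, 91992992 to 92016490, minus strand), which shares 15 exon bases with *1700119I11Rik* on the other strand, had 13.1, 38.1 and 30.3 normalized counts over wild type 1, 2 and 3, against 18.6, 27.6 and 14.3 over mutant 1, 2 and 3. Its groups overlapped, the means were 27.2 ± 12.8 and 20.2 ± 6.78, and the log2 fold change was -0.43 with an SE of 0.58. A list of 16 skeletal and cardiac muscle markers summed to 691 to 888 normalized counts in the wild type libraries and 786 to 1051 in the mutants. The myogenic factors *Myod1* and *Myog* and the myosin gene *Myh8* had 0 counts in all libraries, and 3 of the 16 markers, *Acta1*, *Mylpf* and *Actc1*, passed the filter, with none called.

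*Gatm* (ENSMUSG00000027199) spans 122420203 to 122437039 of chromosome 2, on the minus strand. It had 277, 281 and 313 normalized counts over wild type 1, 2 and 3, against 507, 580.1 and 391 over mutant 1, 2 and 3. The groups did not overlap, but mutant 3 was closer to the wild type libraries than mutant 1 and 2 were. Group means were 290.3 ± 19.7 in the wild type libraries and 493 ± 95.5 in the mutants (1.70-fold, a log2 fold change of 0.76 ± 0.17 SE). The log2 fold change lay between 0.63 without mutant 2 and 0.91 without mutant 3, and *Gatm* was called in 2 of the 6 such fits. The call was lost without wild type 1 (log2 fold change 0.73), wild type 2 (0.74), mutant 1 (0.74) or mutant 2 (0.63), and with library size as the only scaling (0.66). As *Gatm* was chosen with this contrast known, these calls are no test of it. The highest sum of smooth muscle markers and the lowest *Gatm* among the mutant libraries were both in mutant 3. Between the other mutant libraries the order was not inverse. Every smooth muscle marker was higher in mutant 2 than in mutant 1, and so was *Gatm* (580.1 against 507). The part of smooth muscle cells in the *Gatm* values was not tested.

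*Gamt* (ENSMUSG00000020150, chromosome 10, 79720896 to 79723757, minus strand) had 262, 309.8 and 289 normalized counts over wild type 1, 2 and 3, against 307, 397 and 362 over mutant 1, 2 and 3. Mutant 1 was below wild type 2, so the groups overlapped. Group means were 287 ± 24.0 and 355 ± 45.6 (1.24-fold, a log2 fold change of 0.31 ± 0.16 SE), and over the fits that omit a library the log2 fold change lay between 0.22 and 0.41. Of the liver and pancreas markers, tissues known for creatine synthesis, the pancreatic genes *Ptf1a*, *Ins2* and *Prss1* had 0 counts in all libraries, and the liver marker *Alb* had a mean of 2.17 in the wild type and 0 in the mutants. Nearly all of the list's sum, 4204 to 4894 in the wild type libraries and 3817 to 4011 in the mutants, came from *Afp* (2855 ± 373 and 2358 ± 138), *Ttr* (1136 ± 142 and 1116 ± 115) and *Apob* (519 ± 96.1 and 450.2 ± 139). These secreted protein genes were not called, and their part in the *Gatm* and *Gamt* values was not tested.

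Levels of different genes were compared per length, as RPKM (reads per kilobase of exon, scaled to library size with TMM, over the union of exons). In every library the order was *Ckb*, *Ckmt1*, *Gamt*, *Gatm*, *Ckmt2* and *Ckm*, and no neighbouring pair in this order overlapped over the 3 libraries of a group. *Ckb* was at an RPKM of 449.6 ± 9.45 in the wild type libraries and 847 ± 3.78 in the mutants. By RPKM it ranked between 81st and 104th of 21232 genes with a position in the wild type libraries and between 37th and 40th in the mutant libraries. *Ckmt1* was at an RPKM of 26.0 ± 2.34 and 56.3 ± 3.66. *Gamt* was at 10.2 ± 0.852 and 12.6 ± 1.62, above *Gatm* at 4.97 ± 0.338 and 8.43 ± 1.63. *Ckmt2* was at 0.940 ± 0.443 and 0.698 ± 0.234.

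**Figure D2:**
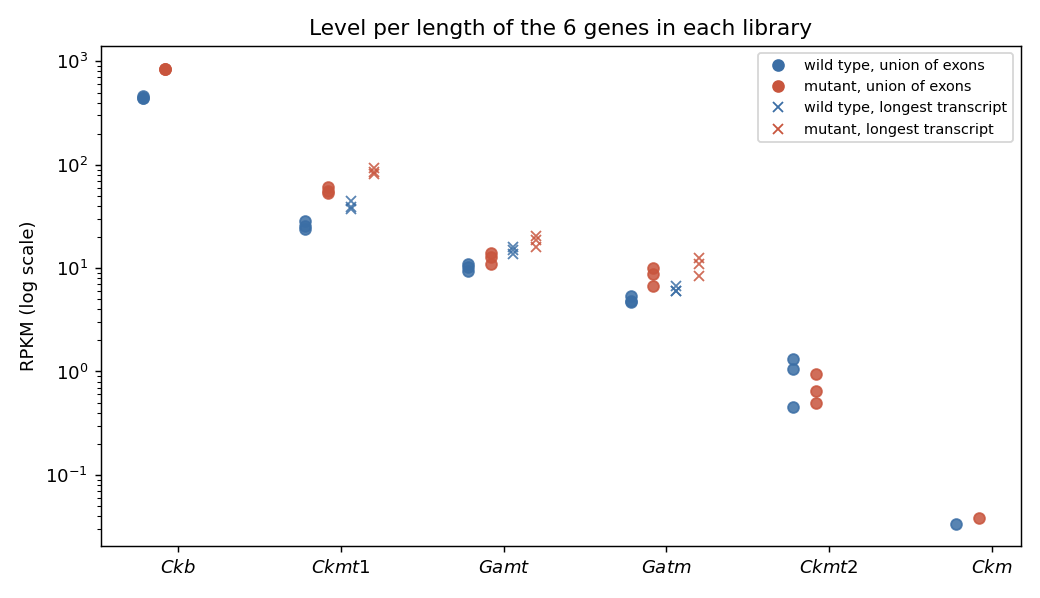
RPKM (y axis, log scale) of the 6 genes in each library, in wild type (blue) and mutant (red), with the length taken as the union of exons (circles) or, where it differs, the longest transcript (crosses). Libraries at 0 are not drawn, which leaves 1 point per group for *Ckm*. The genes run from *Ckb* at the left, with 441 to 460 in wild type, to *Ckm* at the right.

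Of the summed creatine kinase RPKM, *Ckb* made up 94.3% ± 0.539 in the wild type libraries and 93.7% ± 0.344 in the mutants, *Ckmt1* 5.46% ± 0.466 and 6.23% ± 0.356, and *Ckmt2* 0.198% ± 0.0943 and 0.0772% ± 0.0264. The sum itself was 477 ± 9.61 and 904 ± 7.10. The ratio of *Ckb* to *Ckmt1* was 15.6 to 18.3 in the wild type libraries and 14.1 to 15.8 in the mutants, and these ranges overlap, so the balance of the cytosolic and the mitochondrial transcript did not separate the groups. The ratio of *Gatm* to *Gamt* was 0.436 to 0.521 in the wild type libraries and 0.519 to 0.795 in the mutants, and these ranges also overlap. With the longest transcript as the length, *Ckmt1* was at an RPKM of 40.1 and 86.8, *Gatm* at 6.24 and 10.6, and *Gamt* at 14.9 and 18.5, and the order of the genes was the same.

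The genes around creatine were taken from 6 lists of 54 genes in all, of which 52 were in the tables and 47 passed the filter. The lists cover creatine transport, the supply of arginine and glycine, the methyl donor cycle, other phosphotransfer kinases, mitochondrial membrane partners and ATP-using ion pumps. Of these 47, 2 were called higher (4.26%) and 1 lower (2.13%), against 2.78% and 5.83% of all tested genes, and their median log2 fold change was 0.16 against -0.04 over all tested genes. At an adjusted p under 0.01 with no minimum fold change, 11 of the 47 were higher (23.4%) and 2 lower (4.26%), against 7.32% and 7.61% of all tested genes. Their median mean count was 1295 against 473 over all tested genes, and the part of depth in these shares was not tested. Library size as the only scaling shifts the median of all genes by -0.11 on the log2 scale. Under it 5 of the 47 were higher at this adjusted p, against 3.93% of all tested genes. The gene-length correction shifts that median by 0.14, and 17 of the 47 were higher, against 15.3% of all genes tested there. With that correction 7 of the 47 were called higher, against 773 of 11874 genes. With library size alone 1 of the 47 was, against 200 of 12501 genes.

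**Figure D3:**
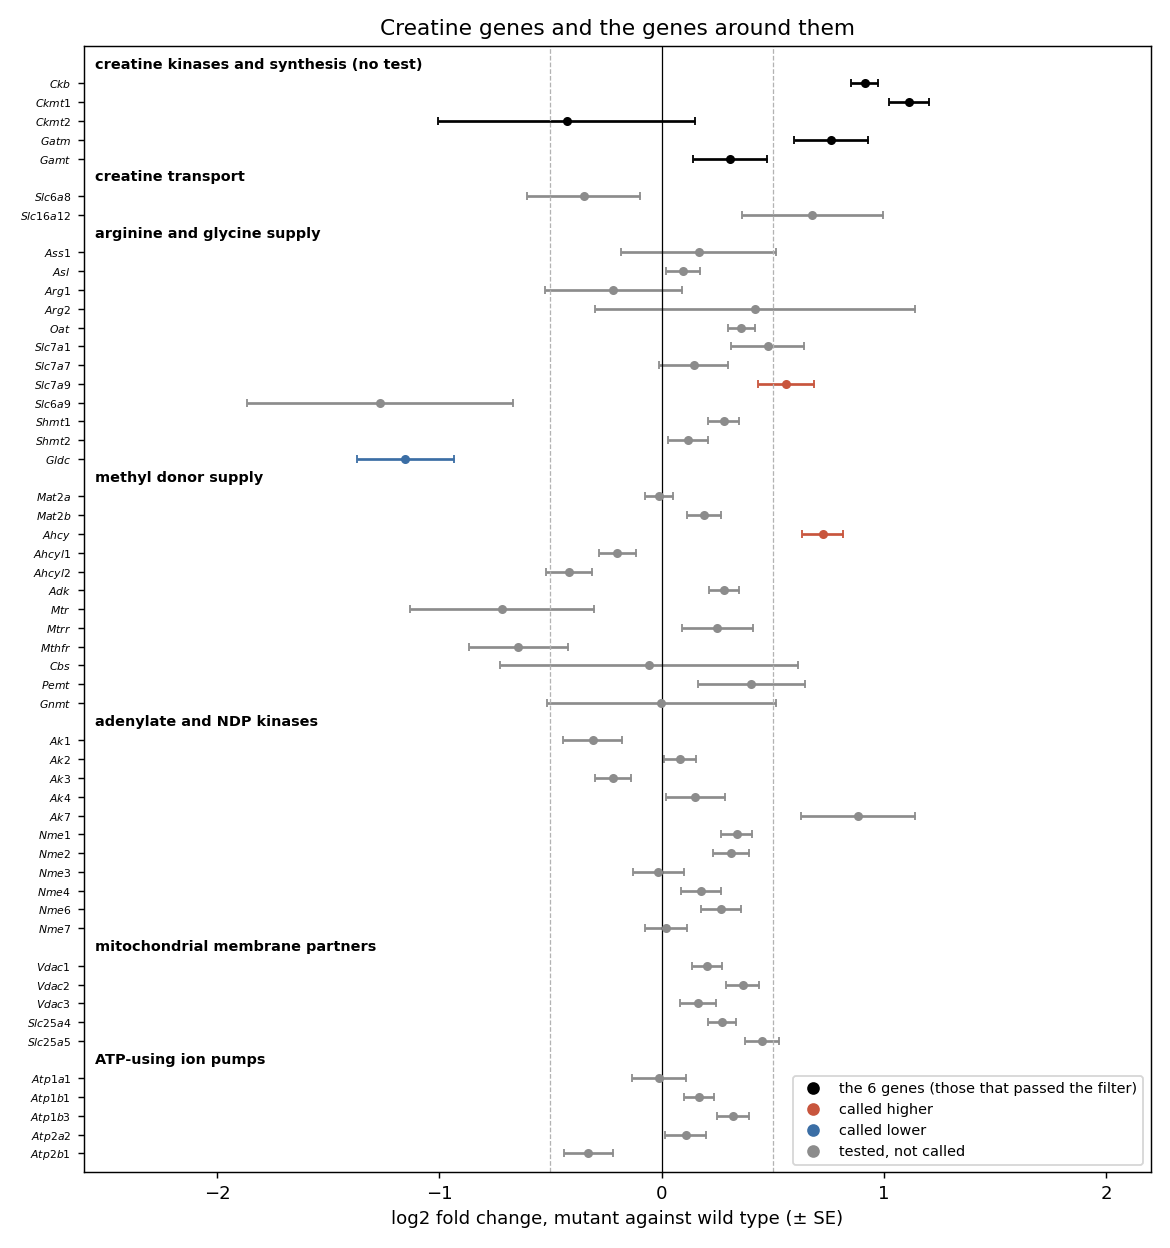
Log2 fold change, mutant against wild type (x axis, ± SE, n = 3 per group), of the members that passed the filter (black, no test) and of the tested genes in the 6 lists (red, called higher; blue, called lower; grey, not called). Dashed lines mark the fold threshold of a call. Most list genes lie between these lines, with *Ahcy* and *Slc7a9* to the right and *Gldc* to the left among called genes.

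Creatine also enters cells through transporters, and neither of the listed transporter genes was called. *Slc6a8*, the sodium-dependent creatine transporter, which is X-linked, had 193, 293 and 135 normalized counts in the wild type libraries and 160.1, 184 and 142 in the mutants (a log2 fold change of -0.35 ± 0.26 SE, adjusted p = 0.33). Adjusted p-values here and below come from the quasi-likelihood test of edgeR and are corrected by Benjamini-Hochberg over all tested genes. The log2 fold change of *Slc6a8* was -0.01 without wild type 2, and for an X-linked gene too sex and genotype cannot be told apart. *Slc16a12*, a monocarboxylate transporter family member that carries creatine, had 68.3, 80.0 and 54.1 in the wild type libraries and 150.8, 94.6 and 78.4 in the mutants (a log2 fold change of 0.68 ± 0.32 SE, edgeR adjusted p = 0.12), and its log2 fold change was 0.36 without mutant 1. For both genes the groups overlapped.

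Among the genes that supply the substrates of GATM, *Slc7a9*, which encodes a subunit of a transporter for cystine and basic amino acids such as arginine, rose from 591 ± 58.9 to 871 ± 99.0 normalized counts (a log2 fold change of 0.56 ± 0.13 SE, edgeR adjusted p = 0.0042). The call was lost in 4 of the 6 fits that left out a library, those without wild type 1, wild type 2, mutant 1 or mutant 2, and with library size as the only scaling. *Gldc*, the decarboxylase of the glycine cleavage system, fell from 230.2 ± 39.3 to 104 ± 11.3 (log2 fold change -1.15 ± 0.22 SE, edgeR adjusted p = 0.0013), and its call was lost without wild type 1 (adjusted p = 0.0106). *Oat*, the ornithine aminotransferase gene, was at 39355 ± 1952 and 50438 ± 1449 (log2 fold change 0.36, edgeR adjusted p = 5.4e-04). *Shmt1*, which makes glycine from serine, was at 5510.3 ± 245 and 6686 ± 205 (log2 fold change 0.28, edgeR adjusted p = 0.0066). Both were past the adjusted p but below the fold set for a call. *Shmt1* was called with the gene-length correction (0.50) and was not past the adjusted p with library size alone (adjusted p = 0.0481). Of the 12 genes of this list, 9 had a log2 fold change above 0 and 3 below, or 8 and 4 with library size as the only scaling.

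Among the genes of the methyl donor cycle, which serves GAMT, 5 of 12 tested had a log2 fold change above 0 and 7 below, or 7 and 5 with RLE normalization. *Ahcy*, which breaks down the S-adenosylhomocysteine left by methyltransferases, rose from 977 ± 47.8 to 1614 ± 54.4 normalized counts (a log2 fold change of 0.72 ± 0.09 SE, edgeR adjusted p = 4.9e-05) and was called in all 6 fits that left out a library. *Mat2a*, which makes S-adenosylmethionine, was at 6902 ± 97.9 and 6850.4 ± 92.8 (log2 fold change -0.01 ± 0.06 SE, edgeR adjusted p = 0.92), a direction that turns with RLE, DESeq2 and the gene-length correction. *Adk*, which clears the adenosine made by AHCY, was at 10446 ± 805 and 12687 ± 187 (log2 fold change 0.28, adjusted p = 0.0070).

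None of the other phosphotransfer kinases, mitochondrial partners or ion pumps was called, though with the gene-length correction 2 of the kinases, *Nme1* (0.52) among them, and 1 mitochondrial partner were. *Nme1* and *Nme2*, neighbouring nucleoside diphosphate kinase genes of similar sequence, so that the split of reads between them is uncertain, had log2 fold changes of 0.34 (edgeR adjusted p = 0.0025) and 0.31 (adjusted p = 0.0086). Of the 5 outer membrane channel and ADP/ATP carrier genes, which exchange metabolites with mitochondrial creatine kinase, all had a log2 fold change above 0 with TMM, RLE, library size alone, DESeq2 and the gene-length correction. With TMM 3 of them, *Vdac2*, *Slc25a4* and *Slc25a5*, had an adjusted p under 0.01, and with library size alone 2 did, while with DESeq2 and with the gene-length correction 4 did. *Slc25a5*, an X-linked ADP/ATP carrier gene, was at 23166 ± 2699.7 and 31699 ± 1530.4 (log2 fold change 0.45 ± 0.08 SE, edgeR adjusted p = 5.9e-04). It was called without wild type 3, at 0.57. *Slc25a4* was at 17837 ± 859 and 21564 ± 595 (log2 fold change 0.27 ± 0.06 SE, edgeR adjusted p = 0.0047). For the sodium pump subunits *Atp1b1* and *Atp1b3* the log2 fold changes were 0.17 (adjusted p = 0.07) and 0.32 (adjusted p = 0.0038).

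The nearest gene that passed the filter on low counts was taken on each side of each member in mm9. Genes that did not pass were skipped, so these need not be the adjacent genes. Single genes cannot show whether whole regions moved. Beside *Ckb*, *Mark3* had a log2 fold change of -0.21 (edgeR adjusted p = 0.24) and *Trmt61a* of 0.18 (adjusted p = 0.42). Beside *Ckmt1*, *Ppip5k1*, 2318 bases away, had -0.08 (adjusted p = 0.82) and *Catsper2*, 28894 bases away, had -0.21 (adjusted p = 0.77). Beside *Gatm*, *Gm14085*, at a gap of 66427 bases, rose from 5.65 ± 4.35 to 111 ± 12.9 normalized counts (a log2 fold change of 4.27 ± 0.52 SE, edgeR adjusted p = 2.9e-05), while *Spata5l1* on the other side had -1.15 (adjusted p = 0.0294) and was not called. *Gm14085* was not called without mutant 1 or mutant 2, since its mean count then fell below 50. Beside *Gamt*, *Ndufs7*, a complex I subunit gene, had 0.37 (adjusted p = 0.0038) and *Dazap1* -0.46 (adjusted p = 0.0082), neither past the fold set for a call, though *Dazap1* was called lower without wild type 3 (-0.54) and with library size as the only scaling (-0.57). Next to *Ckm*, *Klc3* was called lower (log2 fold change -1.32, edgeR adjusted p = 0.0096), a call lost in all 6 fits that left out a library, and *Mark4* was not called (adjusted p = 0.58). Next to *Ckmt2*, *Zcchc9* (0.11, adjusted p = 0.52) and *Rasgrf2* (-0.10, adjusted p = 0.91) were not called. *Ckmt1* and *Gatm* are both on chromosome 2, 1230730 bases apart. Of the 18 tested genes that lie between them 2 were called higher and 1 lower, against 2.78% and 5.83% of all tested genes. The median log2 fold change of these 18 was 0.07.

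The genes with a pattern most like that of *Ckb*, *Ckmt1* and *Gatm* were sought among 10562 genes, by the root mean square difference of log2 CPM over the 6 libraries after each gene was centred on its wild type mean (CPM, counts scaled to a common library size). Nearest to *Ckb* was *Areg*, an EGF receptor ligand, at a difference of 0.05, with 252 ± 9.01 normalized counts in the wild type libraries and 480.4 ± 15.5 in the mutants. It was followed by the transcription factor gene *Klf6* (0.06), the tubulin gene *Tuba1c* (0.08), the TWEAK receptor gene *Tnfrsf12a* (0.08) and *Pccb* (0.08), a subunit of propionyl-CoA carboxylase. *Klf6* was at a level of counts like that of *Ckb*, with 11676 ± 888 and 22406 ± 605. Nearest to *Ckmt1* were *Mettl21d* (0.09), the serotonin receptor gene *Htr4* (0.09), the MHC class I gene *H2-Q10* (0.10), the nucleotide receptor gene *P2ry6* (0.11) and *Gm5506* (0.12), a copy of an enolase gene. The counts of *Tuba1c*, *H2-Q10* and *Gm5506* are uncertain, since each has near-identical relatives in the genome. Nearest to *Gatm* were the kinesin gene *Kif18a* (0.09), *Degs2* (0.11), *1810034E14Rik* (0.11), *Pglyrp1* (0.11) and *Lamtor3* (0.11). Like *Gatm*, they were lowest in mutant 3 among the mutant libraries, which their choice by likeness to *Gatm* favours. Between the members themselves the difference was 0.17 for *Ckb* and *Ckmt1*, 0.22 for *Ckb* and *Gatm*, and 0.34 for *Ckmt1* and *Gatm*. From *Gamt* it was 0.37 for *Gatm*, 0.45 for *Ckb* and 0.60 for *Ckmt1*. These distances describe 6 libraries and carry no test.

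**Figure D4:**
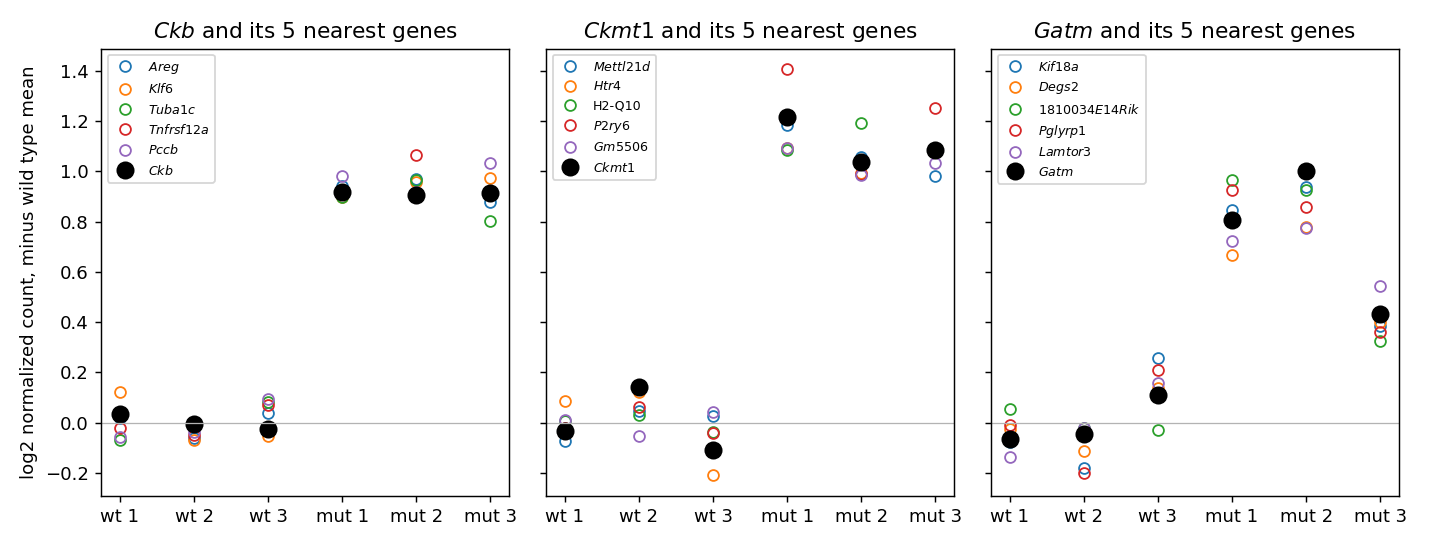
Log2 normalized count of each gene minus its mean over the wild type libraries (y axis) in wild type 1 to 3 and mutant 1 to 3 (x axis), for *Ckb*, *Ckmt1* and *Gatm* (black) and the 5 genes nearest to each (open circles). The mutant libraries of *Areg*, the nearest to *Ckb*, lie between 464 and 494 normalized counts. Among the mutant libraries *Gatm* and the 5 genes nearest to it are lowest in mutant 3, which the choice by likeness favours.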

How the data were processed

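Epithelial cells were sorted by EpCAM from E13.5 small intestine, 500 to a library, and cDNA was amplified for 15 cycles with the SMARTer v4 kit. Per the submitters' notes and the study's methods, the authors mapped reads of 84 bases with STAR 2.5.2b to mm9, counted the reads that mapped to 1 place with featureCounts 1.5.1 on a UCSC gene model and deposited raw counts, 1 table per library. Whether strand was used is not given in the sources used here. The authors' own comparison used DESeq2 1.18.1.

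The counts, 18216537 to 20397278 per library, were tested here with edgeR 4.0.16 in R 4.3.3 (TMM, filterByExpr, quasi-likelihood test on genotype, Benjamini-Hochberg adjustment). A call needed an adjusted p below 0.01, a change of 0.5 or more on the log2 scale and, averaged over the libraries, 50 or more normalized counts. Of 23366 genes, 12501 were tested. The 6 members, the lists and the rule for named genes were chosen with earlier results of these data known. Named genes are the members, check genes, the transporters, called and the 2 most abundant genes of each list, the nearest tested genomic neighbours and the 5 genes of most similar pattern. Libraries without molecular identifiers count reads, so counting errors cover counting only, and p-values measure the spread between these libraries. Libraries of a group differed by a chi-square of 5.66 to 15.8 per gene, where counting noise gives about 1, and each was used as a replicate. Positions and lengths come from GENCODE M1 (NCBIM37), which names 90.9% of the genes, and *Ckb* copies from BLAST+ 2.17.0. Promoters come from RefSeq tables of GRCm38.p6, placed on mm9 by exact match. Of the list genes, *Ak6* and *Ak9* had no row. As a check of the code, the fits were also run on counts simulated from the fitted model itself. That run does not bear on the accuracy of the calls in these libraries.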

Additional observations from a re-analysis of the deposited data

How the results depend on the processing

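The log2 fold changes of *Ckb*, *Ckmt1*, *Gatm* and *Gamt* were above 0, and that of *Ckmt2* below 0, under RLE, library size alone, DESeq2 1.42.0, no filter on low counts, a replicate block, a gene-length correction and every fit that omits a library, and under a filter at a mean of 50 counts, which *Ckmt2* did not pass. *Ckb* moved beyond its spread under library size alone, to 0.81. The ranges over the fits without 1 library were 0.91 to 0.93 for *Ckb*, 1.06 to 1.19 for *Ckmt1*, 0.63 to 0.91 for *Gatm*, 0.22 to 0.41 for *Gamt* and -0.76 to -0.10 for *Ckmt2*.

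The number of genes called higher was 348, and 200 under library size alone (17.3% of calls higher, against 32.3%), 773 with the gene-length correction (66.6%), 915 at an adjusted p under 0.01 alone, 1702 at one under 0.05 alone and 85 at a log2 change of 1 or more. The number called lower was 729, and 387, 1892 and 284 under the gene-length correction, the adjusted p under 0.05 alone and the fold of 1. Without 1 library the counts were 260 to 516 higher and 405 to 867 lower, the lower counts being 405 (wild type 1 omitted), 406 (wild type 2) and 463 (mutant 2). The cause was not tested. Replicate numbers are shared between the groups. The correlation of same-numbered deviations was 0.0097, -0.0449 and -0.0179, and that of different-numbered ones lay between -0.025 and 0.042. No pairing by number was seen in these values, and the labels do not say whether same-numbered libraries share a litter. The replicate block gave 339 higher and 691 lower. With the block, 6 genes of the pathway lists passed an adjusted p of 0.01 upward and 1 downward, where 11 and 2 did without it, *Shmt1* (adjusted p = 0.0205) and *Slc25a4* (0.0175) being among those lost.

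Direction turned for genes that were not called. *Mat2a* was 0.0108 with RLE, 0.0119 with DESeq2 and 0.17 with the gene-length correction, and -0.0211 to 0.0002 over the fits that omit a library (above 0 for wild type 2). *Ppip5k1* was 0.11 with the gene-length correction and -0.23 to 0.0754 over those fits (above 0 for wild type 2, 0.06, and mutant 3). *Catsper2* was 0.0101 with the gene-length correction and -0.43 to 0.0341 (above 0 for wild type 3). *Rasgrf2* was 0.14 with the replicate block, 0.11 with the gene-length correction and -0.60 to 0.61 (above 0 for wild type 2 and mutant 2, 0.22). *Klc3*, near the threshold, was not called with RLE, the replicate block or the gene-length correction. Depth limits *Ckm*, with 2 counts in all, and *Ckmt2*, with 144.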
